A study of Homo sapiens with 12 samples.

Results

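CYP1A1 and the genes of the aryl hydrocarbon receptor circuit were followed in K-562 cells during exposure to Si-711. The series names this compound a dual inhibitor of the deacetylases sirtuin 1 and sirtuin 2. The genes were CYP1A1, CYP1B1, AHR, ARNT, AHRR and TIPARP, found by matching their symbols to Ensembl identifiers, and they are 6 of the 51112 genes in the deposited table. Untreated cells were set beside cells sampled 8, 24 and 48 h after addition of 5 µM Si-711. Each of these 4 groups has 3 biological replicates, which gives 12 libraries of polyadenylated RNA, made strand-specific. The K-562 line was established from human chronic myeloid leukemia and is labelled as lymphoblast, so all groups come from a single leukemic genotype.

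The aryl hydrocarbon receptor, encoded by AHR, is a ligand-activated transcription factor with a basic helix-loop-helix and a PAS domain. Without ligand it is held in the cytoplasm by HSP90 and the cochaperone p23. After binding a ligand, such as a dioxin, a polycyclic aromatic hydrocarbon or a tryptophan metabolite, it enters the nucleus, pairs with ARNT and binds the xenobiotic response element, whose core reads GCGTG. CYP1A1 and CYP1B1 are classical target genes that encode cytochrome P450 monooxygenases. AHRR and TIPARP are target genes whose products act back on the receptor, as a competing repressor and as a mono-ADP-ribosyltransferase.

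The core was looked for in the 250 bases before each RefSeq gene start on GRCh38.p14, as GCGTG or, on the other strand, CACGC. At the first listed start, CYP1A1, AHRR and TIPARP held it and AHR and ARNT did not, which is 3 of the 5 members in the promoter table. CYP1B1 has no entry there. Of all 35116 RefSeq promoter windows, 11313, or 32.2%, held these letters, and of 23 other target genes of the receptor 8 did, or 34.8%. The core of CYP1A1, the member with the largest fold change, lay at bases -57 to -53 from the start, and that of AHRR at -30 to -26. TIPARP held CACGC at -208 to -204 and at -142 to -138, and its 2 other listed starts held none, while the second start listed for AHRR held 2 cores. The AHRR copy also matched the longer form TNGCGTG, which 4.52% of all windows held on either strand. Of the 23 other target genes, 4 held it, or 17.4%, and the difference was not tested. These genes were counted at the first listed start, whereas the 35116 windows include every listed start. The CYP1A1 and TIPARP copies did not match it. Each core at the first listed start is shown in capitals with 12 bases on both sides, on the strand of the gene. Bases more than 250 before a start were not searched, so response elements further upstream would be missed.
CYP1A1, chr15:74725569-74725597 (minus strand): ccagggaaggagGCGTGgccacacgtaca
AHRR, chr5:321672-321700 (plus strand): ggcgggcggctcGCGTGccggggtggggc
TIPARP, chr3:156674370-156674398 (plus strand): cgcgagaaaggaCACGCcccctcgcggga
TIPARP, chr3:156674436-156674464 (plus strand): cgaacgaacgcgCACGCgcgcgcaggggg
The starts are those of RefSeq, and GENCODE 29 also holds transcripts that begin further upstream, so that the cores of CYP1A1 and TIPARP lie in an annotated 5′ UTR of that gene model while the AHRR core does not.
A match of letters is a description of the sequence, and binding was not measured in these libraries.

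Values are counts normalized with DESeq2 by the authors. This scale makes libraries comparable for a gene but does not correct for gene length, so levels are compared across groups and not across genes. The libraries summed to between 27070528 and 37117837 normalized counts, and 3 reads were worth 2.10 to 3.68 normalized counts. Fold changes are differences of log2(value + 1), with a standard error moderated across all genes by limma. The filter on low values kept 15424 genes, and a gene was called when its adjusted p was under 0.05. The members were chosen with their response in view, so their levels and fold changes are a description with no test, and no p-value is given for them. Where a member is said to be called, this describes on which side of the threshold it fell and is not evidence of a response. Of the 6 members, 5 passed the filter and CYP1B1 did not. The groups hold neither a vehicle control nor untreated cells cultured for the later times, so exposure and time in culture cannot be told apart. In bulk RNA, fewer cells of a type and less RNA per cell cannot be told apart either. Replicate 1 at 24 h stood apart on the leading principal component, with a score of 20 against -10.1 and -8.65 for the other 24 h libraries. Among untreated libraries replicate 3 was the highest for CYP1A1, AHR and AHRR and had the lowest sum of erythroid markers, 360801 against 652903 and 657608 normalized counts in replicates 1 and 2. Without it the log2 differences from untreated cells at 8, 24 and 48 h were 3.41, 4.36 and 5.84 for CYP1A1, 2.14, 2.54 and 2.75 for AHR, and 0.98, 1.08 and 0.45 for AHRR.

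CYP1A1 (ENSG00000140465, GRCh38 chromosome 15, 74719542 to 74725610, minus strand) encodes the monooxygenase whose transcript is the usual readout of receptor activity. It stood at 81.4, 93.3 and 102.6 normalized counts in untreated cells, 771, 1226 and 863 after 8 h, 1726, 2382 and 1452 after 24 h, and 5380, 6694 and 3587 after 48 h. All libraries of each time lay above all libraries of the time before, and replicate 2 was the highest of the 3 at 8, 24 and 48 h. The group means were 92.5 ± 10.7 in untreated cells and 953 ± 241, 1853 ± 478 and 5220 ± 1560 at 8, 24 and 48 h (SD, n = 3 each). The treated means were 10.3, 20.05 and 56.5 times the untreated mean. On the log2 scale the differences from untreated cells were 3.33, 4.29 and 5.76 (SE 0.24 each). Of the 15424 tested genes, 77, 39 and 15 had a larger log2 fold change at 8, 24 and 48 h. The steps between treated times were smaller, 0.96 for 24 h over 8 h and 1.48 for 48 h over 24 h, and 972 and 431 tested genes had larger ones.

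**Figure D1:**
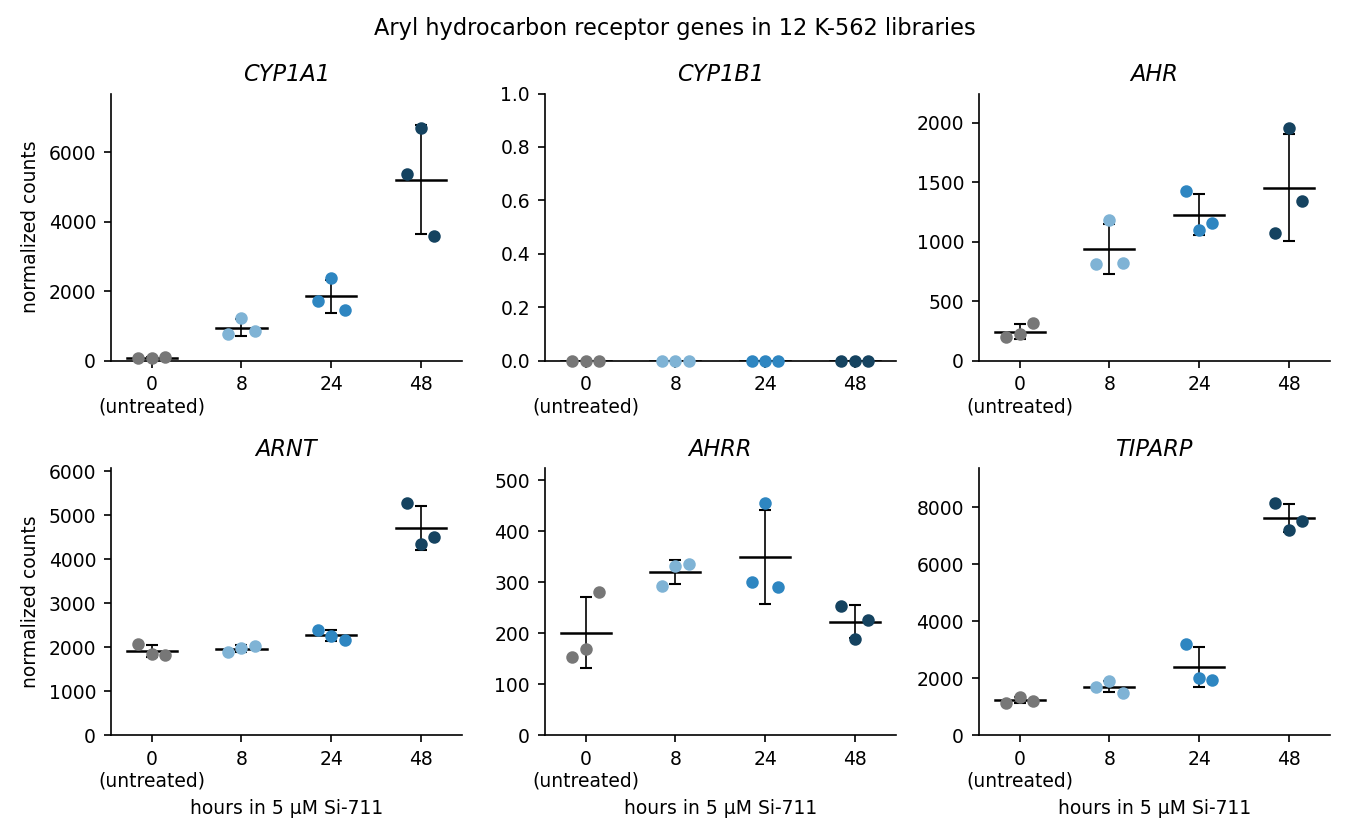
Normalized counts of CYP1A1, CYP1B1, AHR, ARNT, AHRR and TIPARP in each of the 12 libraries, 1 panel per gene with its own linear axis, by time in 5 µM Si-711 (h). Points are libraries and the bars give the group mean and SD (n = 3). CYP1A1 is higher at each later time, ARNT and TIPARP are highest at 48 h, AHRR has its highest mean at 24 h, and CYP1B1 is listed at 0 in all libraries.

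CYP1B1 (ENSG00000138061, chromosome 2, 38066973 to 38109902, minus strand), the other monooxygenase among the members, was listed at 0 in all 12 libraries. CYP1A2, the third enzyme of the family and the genomic neighbour of CYP1A1, is best known from liver. It reached at most 5.69 normalized counts in any library and did not pass the filter. Its group means were 1.59 in untreated cells and 3.38, 4.48 and 1.09 at 8, 24 and 48 h, which is the worth of a few reads per library and, at 48 h, of about a single read. Of the 3 genes of this family, CYP1A1 alone was thus above the filter.

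AHR (ENSG00000106546, chromosome 7, 16916359 to 17346152, plus strand), the receptor itself, was at 196, 224 and 317 normalized counts in untreated cells, 816, 1180 and 820 after 8 h, 1428, 1102 and 1154 after 24 h, and 1076, 1953 and 1338 after 48 h. Every treated library was above every untreated library, but the 3 treated groups overlapped one another. The means were 245.5 ± 63.5 in untreated cells and 938 ± 209, 1228 ± 175 and 1456 ± 450 at 8, 24 and 48 h (SD, n = 3 each). The log2 differences from untreated cells were 1.94, 2.34 and 2.55 (SE 0.23 each). The step of 24 h over 8 h was 0.40 and that of 48 h over 24 h was 0.21, which became -0.17 when all libraries were scaled to equal totals.

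ARNT (ENSG00000143437, chromosome 1, 150809705 to 150876768, minus strand) is the partner that the receptor needs for DNA binding. It was at 2074, 1858 and 1831 normalized counts in untreated cells, 1889, 1988 and 2034 after 8 h, 2403, 2261 and 2157 after 24 h, and 5282, 4355 and 4515 after 48 h. The 8 h and untreated libraries overlapped, the 24 h libraries lay just above both, and the 48 h libraries stood clear of all others. The means were 1921 ± 133 in untreated cells and 1970 ± 74.2, 2274 ± 123.5 and 4717 ± 496 at 8, 24 and 48 h (SD, n = 3 each). The log2 differences from untreated cells were 0.04, 0.24 and 1.29 (SE 0.09 each). ARNT was not called at 24 h with median centring (0.11), with all genes tested, or without untreated replicate 2 (0.22) or 3 (0.21), 8 h replicate 3 (0.24) or 24 h replicate 1 (0.20) or 2 (0.25). Its 24 h call also ended at a threshold of 0.01.

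AHRR (ENSG00000063438, chromosome 5, 304176 to 438291, plus strand), the repressor that competes with the receptor for ARNT, was at 154, 169 and 281 normalized counts in untreated cells, 293, 333 and 336 after 8 h, 301, 456 and 291 after 24 h, and 254, 189 and 226 after 48 h. The 8 h and 24 h libraries lay above the untreated ones and overlapped each other, and the 48 h libraries lay within the untreated range. The means were 201 ± 69.3 in untreated cells and 321 ± 23.8, 349 ± 92.2 and 223 ± 32.7 at 8, 24 and 48 h (SD, n = 3 each). The log2 differences from untreated cells were 0.72, 0.81 and 0.19 (SE 0.24 each), and the difference of 48 h from 24 h was -0.62. The 8 h call ended with median centring (0.63), quantile normalization (0.53), all genes tested, or without any of 5 of the 6 compared libraries (0.55 to 0.78), untreated replicate 3 being the exception. The 24 h call ended with quantile normalization (0.57) or without untreated replicate 1 (0.65) or 2 (0.71) or 24 h replicate 2 (0.61). A threshold of 0.01 also ended the 8 h and 24 h calls. AHRR overlaps PDCD6 on the same strand, so their estimated counts can trade reads, and PDCD6 averaged 5122 normalized counts in untreated cells and 4475, 4125 and 2201 at 8, 24 and 48 h.

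TIPARP (ENSG00000163659, chromosome 3, 156673235 to 156706770, plus strand) encodes the ADP-ribosyltransferase that modifies the receptor and limits its activity. It was at 1128, 1335 and 1209 normalized counts in untreated cells, 1710, 1903 and 1502 after 8 h, 3221, 2028 and 1958 after 24 h, and 8155, 7198 and 7511 after 48 h. No groups overlapped, although 2 of the 24 h libraries were close to the highest 8 h library. The means were 1224 ± 104.5 in untreated cells and 1705 ± 201, 2403 ± 710 and 7621 ± 488 at 8, 24 and 48 h (SD, n = 3 each). The log2 differences from untreated cells were 0.47, 0.94 and 2.64 (SE 0.16 each), and the step of 48 h over 24 h was 1.70. Without 24 h replicate 1, the library that stood apart, the 24 h difference was 0.71. The 8 h call ended with median centring (0.39), with all genes tested, and without any of 6 single libraries (0.39 to 0.54), namely each untreated one, 8 h replicates 1 and 2, and 48 h replicate 3. It also ended at a threshold of 0.01.

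**Figure D2:**
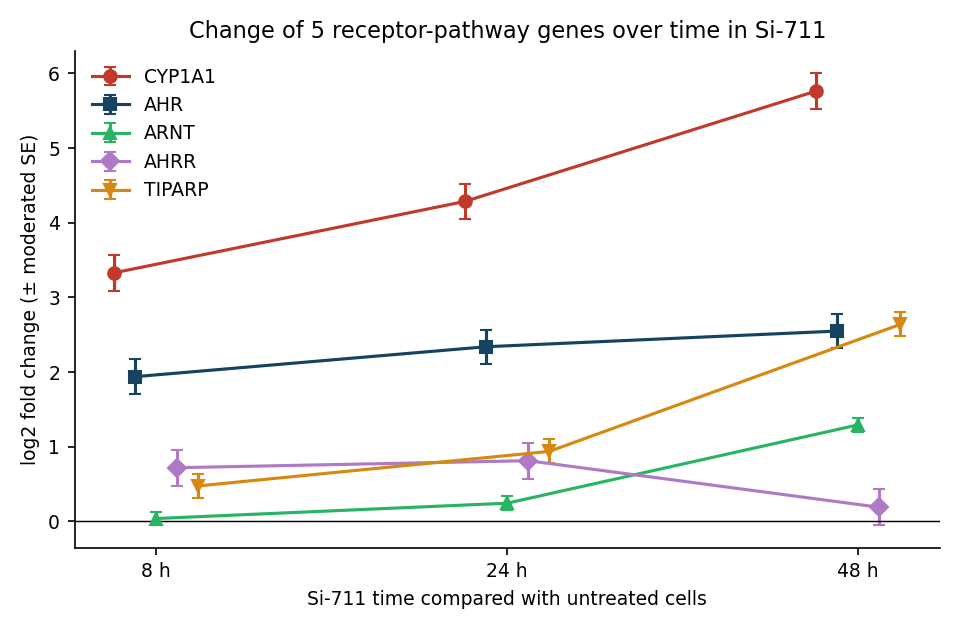
Log2 fold changes of the 5 expressed members against untreated cells at 8, 24 and 48 h, with moderated standard errors as bars. CYP1A1 has the largest value of the members at each time (3.33, 4.29 and 5.76), and ARNT and TIPARP have their largest step between 24 and 48 h.

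The members differed in their timing. CYP1A1 and AHR had gained more of their 48 h log2 difference by 8 h than after it, whereas ARNT and TIPARP had their largest step between 24 and 48 h. At 8 h all members but ARNT were called higher, 4 of 5, where 13.0% of tested genes were called higher and 15.2% lower (28.2% in all). At 24 h 5 of 5 were called higher, where 22.9% of tested genes were higher and 24.7% lower (47.6% in all). At 48 h all members but AHRR were called higher, 4 of 5, where 32.3% were higher and 33.8% lower (66.2% in all). The comparisons with untreated cells share the 3 untreated libraries, and the members were chosen from them, so nothing is read from these counts.

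The same members had all 3 treated libraries above all 3 untreated ones, 4 of 5 at 8 h, 5 of 5 at 24 h and 4 of 5 at 48 h. Among all tested genes, 21.6% lay above and 26.9% below without overlap at 8 h, 28.7% above and 30.5% below at 24 h, and 33.9% above and 35.6% below at 48 h. For 24 h over 8 h CYP1A1 alone was called, higher, where 8.31% of tested genes were higher and 9.83% lower (18.1% in all). That call ended without 8 h replicate 1 (0.82) or 3 (0.90) or 24 h replicate 2 (0.76), and at a threshold of 0.01. For 48 h over 24 h CYP1A1, ARNT and TIPARP were called higher and AHRR lower, where 25.1% of tested genes were higher and 27.1% lower (52.2% in all). The AHRR call ended under median centring (-0.43), quantile normalization (-0.33), a replicate block, a fit of those groups alone, all genes tested, and 6 omissions of a single library (-0.64 to -0.42). It also ended at a threshold of 0.01.

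Other target genes of the receptor were tested with limma, adjusted by Benjamini-Hochberg over all 15424 genes. This list and those that follow were chosen with earlier results of these data known. NQO1, HSP90AA1, PTGES3, KYNU and AFMID were named after their values were seen, so their p-values are descriptive. Of 28 listed, 18 were tested: 5 rose and 2 fell at 8 h, 6 rose and 3 fell at 24 h, and 4 rose and 5 fell at 48 h. Of all tested genes, 13.0% were called higher and 15.2% lower at 8 h. These shares were 22.9% and 24.7% at 24 h, and 32.3% and 33.8% at 48 h. They also stand beside the counts of the lists that follow, and nothing is read from these counts. The median log2 fold changes of the list were 0.07, 0.05 and 0.01, beside -0.01, 0.02 and -0.05 over all tested genes. The 8 h counts depended on the scaling, with 8 higher and 1 lower at equal totals, 5 and 4 under median centring and 7 and 4 under quantile normalization, and they were 4 and 4 without 8 h replicate 1 and 4 and 1 without 8 h replicate 3 or untreated replicate 1. NQO1, a quinone reductase and textbook target, averaged 1905 ± 329 normalized counts in untreated cells and 2247 ± 225, 1756 ± 194 and 2014 ± 371 at 8, 24 and 48 h (SD, n = 3 each). Its log2 differences of 0.25, -0.11 and 0.08 had limma adjusted p of 0.26, 0.594 and 0.675, so it did not pass the test, although at equal totals its 8 h difference was 0.41 (adjusted p = 0.0451).

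The targets that passed moved in both directions, as did the called genes among all tested ones. MT2A, a metallothionein, was at 194, 283 and 173 normalized counts at 8 h, against 34.3, 48.7 and 41.7 in untreated cells. Its log2 differences were 2.34, 1.18 and 1.23 at 8, 24 and 48 h (limma adjusted p = 0.000117, 0.00424 and 0.00197). LPCAT2, a lysophosphatidylcholine acyltransferase, had log2 differences of 1.73, 1.60 and 1.87 (limma adjusted p = 0.000106, 4.39e-05 and 3.49e-06). SCIN, an actin-severing protein, was at 26.2, 5.16 and 6.62 normalized counts at 8 h, against 191, 131 and 89.7 in untreated cells, all treated libraries being lower. Its log2 differences were -3.61, -2.14 and -1.19 (limma adjusted p = 0.000292, 0.00347 and 0.0519), so the call did not extend to 48 h. ABCG2, an efflux transporter, had differences of -1.71 at 24 h and -2.0 at 48 h (limma adjusted p = 0.000202 and 2.14e-05).

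**Figure D3:**
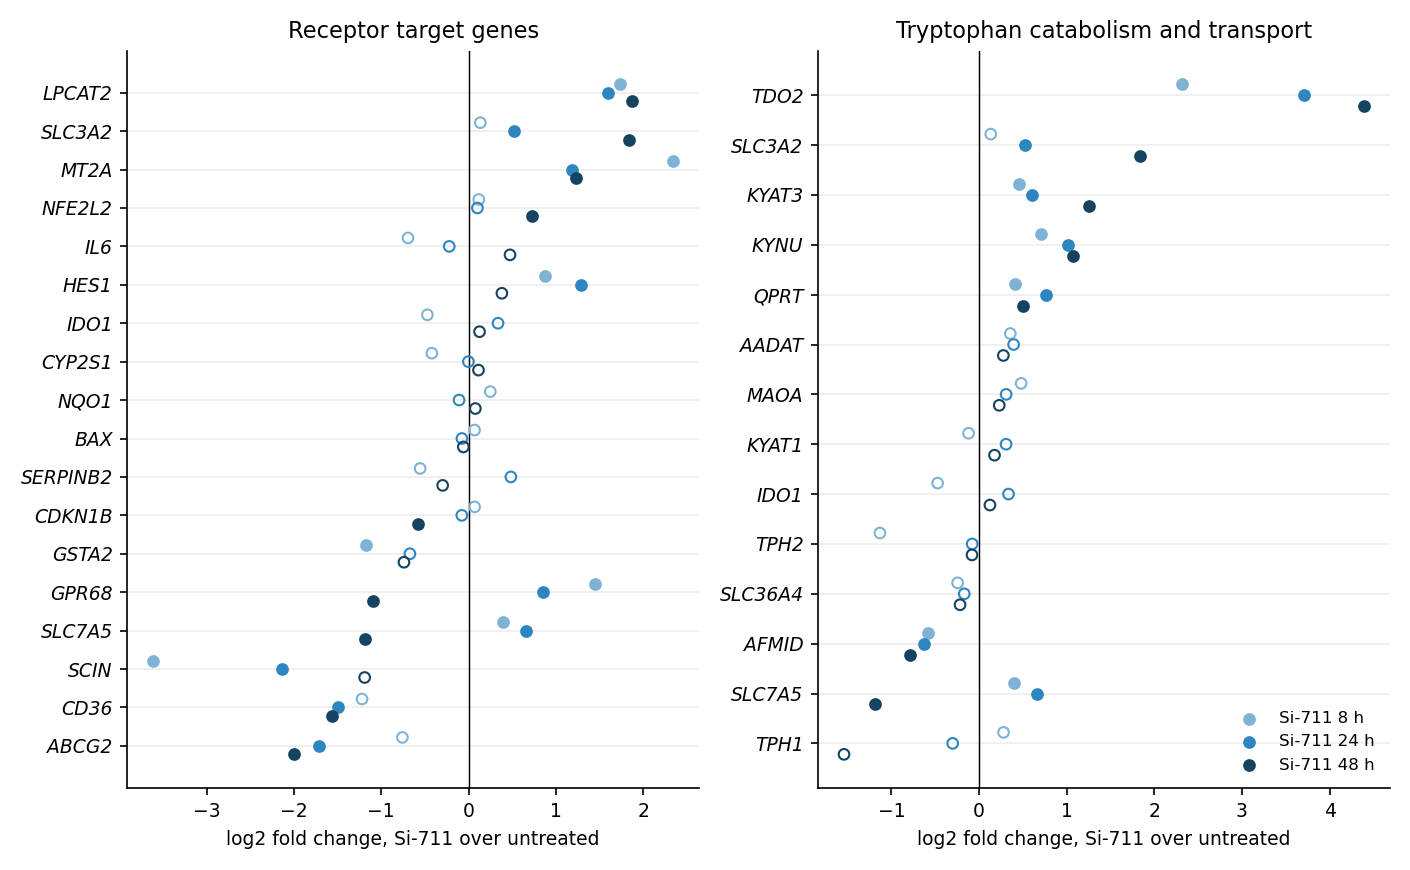
Log2 fold changes against untreated cells of the 18 tested target genes (left) and 14 tested tryptophan genes (right), 1 point per gene and time (8, 24 and 48 h), filled where the limma adjusted p was under 0.05 and open elsewhere. Of the 18 tested target genes, 5 rose and 2 fell at 8 h, and TDO2 has the largest fold change of the tryptophan genes at each time. IDO1, SLC7A5 and SLC3A2 appear in both panels.

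Of 16 genes for the cytoplasmic complex of the receptor, its coactivators and its turnover, all were tested. At 8 h 2 rose and 3 fell, at 24 h 2 rose and 9 fell, and at 48 h 6 rose and 7 fell, with list medians of -0.16, -0.37 and 0.07. Median centring gave 2 and 6 at 8 h, and equal totals 4 and 7 at 24 h. HSP90AA1, a chaperone that holds the unliganded receptor, had log2 differences of -0.62 and -1.29 at 8 and 24 h (limma adjusted p = 0.000572 and 9.22e-07) and of 0.11 at 48 h (adjusted p = 0.333). Its 48 h value turned to -0.45, and was called, under quantile normalization. HSP90AB1, the other HSP90 gene of the list, was also tested, and its change is not given here. PTGES3, which encodes p23, was lower by log2 differences of -0.50, -0.80 and -0.67 at 8, 24 and 48 h (limma adjusted p = 0.000946, 8.29e-06 and 1.1e-05).

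Cofactors in the nucleus moved both ways as well. SMARCA4, an ATPase of SWI/SNF chromatin remodellers, averaged 499.7 ± 70.6 normalized counts in untreated cells and 468 ± 120.5, 756 ± 239 and 3484 ± 1011 at 8, 24 and 48 h (SD, n = 3 each). Its log2 difference at 48 h was 2.77 (limma adjusted p = 8.13e-07). NCOA3, a p160 coactivator, rose by 0.59, 1.05 and 2.20 at 8, 24 and 48 h (limma adjusted p = 0.00175, 7.7e-06 and 3.87e-09). EP300, a histone acetyltransferase, had log2 differences of -1.11 at 24 h and -2.24 at 48 h (limma adjusted p = 0.0028 and 3.94e-06). CUL3, a scaffold of ubiquitin ligases, had log2 differences of -0.45, -0.72 and -1.99 at 8, 24 and 48 h (limma adjusted p = 0.0042, 5.63e-05 and 3.42e-09).

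Tryptophan breakdown yields kynurenine, a ligand of the receptor. Of 23 genes for tryptophan breakdown, transport and ligand formation, 14 were tested. At 8 h 5 rose and 1 fell, at 24 h 6 rose and 1 fell, and at 48 h 5 rose and 2 fell, with list medians of 0.32, 0.37 and 0.20. IDO1, SLC7A5 and SLC3A2 are also in the list of target genes, so the counts of these lists are not separate. TDO2, the dioxygenase that opens the indole ring of tryptophan, was at 17.3, 12.3 and 18.2 normalized counts in untreated cells, 83.4, 80.03 and 83.9 after 8 h, 272, 225 and 168 after 24 h, and 487, 284 and 312 after 48 h. No groups overlapped. TDO2 rose by 2.32, 3.71 and 4.39 on the log2 scale (SE 0.27 each, limma adjusted p = 8.68e-05, 9.16e-07 and 1.86e-08), and it remained called in every alternative that was run.

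The enzymes after TDO2 split. KYNU, kynureninase, averaged 469 ± 54.6 normalized counts in untreated cells and 764 ± 38.9, 942 ± 104 and 982 ± 22.8 at 8, 24 and 48 h (SD, n = 3 each), and it rose by 0.71, 1.01 and 1.07 (limma adjusted p = 0.000794, 1.62e-05 and 2.45e-06). AFMID, the formamidase that releases kynurenine from its formyl form, had log2 differences of -0.58, -0.62 and -0.79 (limma adjusted p = 0.00364, 0.000898 and 6.68e-05). KYAT3, a kynurenine aminotransferase, rose by 0.45, 0.61 and 1.25 (limma adjusted p = 0.00277, 0.000117 and 6.39e-08).

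SLC7A5 and SLC3A2 encode the light and heavy chain of an amino acid transporter that imports tryptophan. SLC7A5 averaged 13841 ± 543 normalized counts in untreated cells and 18272 ± 1753, 21993 ± 3002 and 6072 ± 709 at 8, 24 and 48 h (SD, n = 3 each). It rose by 0.66 at 24 h and had a log2 difference of -1.19 at 48 h (limma adjusted p = 0.000303 and 5.8e-07). Its 8 h difference of 0.40 (limma adjusted p = 0.0172) was no longer called without untreated replicate 1 (0.37) or 8 h replicate 1 (0.38) or 3 (0.34). SLC3A2 rose by 0.52 at 24 h and 1.84 at 48 h (limma adjusted p = 0.000484 and 4.21e-09), so the chains moved in opposite directions at 48 h.

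**Figure D4:**
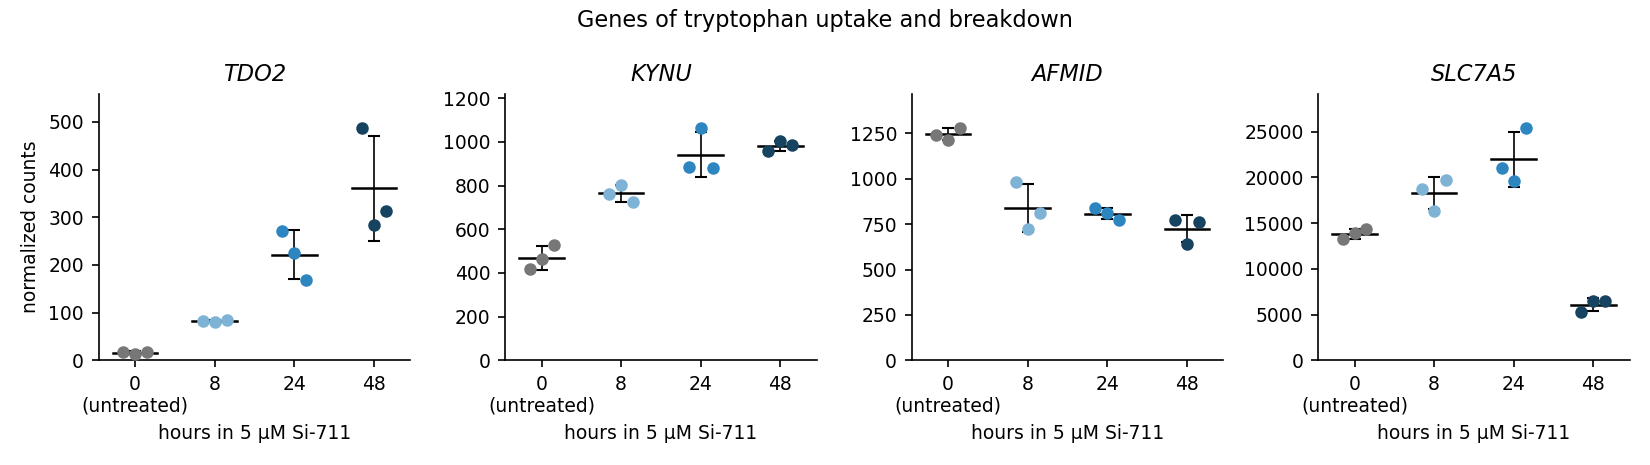
Normalized counts of TDO2, KYNU, AFMID and SLC7A5 in each of the 12 libraries on linear axes, by time in 5 µM Si-711 (h), with group mean and SD (n = 3) as bars. TDO2 averages 15.9 in untreated cells and 82.4, 222 and 361 at 8, 24 and 48 h, and SLC7A5 is lowest at 48 h.

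ARNT also pairs with other PAS proteins. Of 13 genes of that family, 7 were tested: 2 rose at 8 h, 3 at 24 h and 4 at 48 h, and none fell by limma, with list medians of 0.06, 0.06 and 0.75. EPAS1, a hypoxia-inducible factor subunit that pairs with ARNT, averaged 453 ± 102 normalized counts in untreated cells and 755 ± 8.28, 723 ± 55.7 and 2143 ± 393 at 8, 24 and 48 h (SD, n = 3 each). It rose by 0.76, 0.69 and 2.25 on the log2 scale (limma adjusted p = 0.00382, 0.00299 and 5.68e-08). NPAS1, a factor best known from neurons, rose by 1.77, 1.81 and 1.78 (limma adjusted p = 0.00025, 5.28e-05 and 2.21e-05).

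Of 31 other xenobiotic monooxygenases, redox partners and regulators, 15 were tested: 2 fell at 8 h, 5 rose and 4 fell at 24 h, and 5 rose and 5 fell at 48 h. The list medians were -0.14, -0.004 and -0.31, and CYP2S1 is also among the tested target genes. The 8 h calls ended at equal totals, under quantile normalization and without untreated replicate 2 or 3 or 8 h replicate 2 or 3. They also ended with all genes tested and at a threshold of 0.01. The 24 h counts were 3 and 3 without untreated replicate 3 or 24 h replicate 1 or 3 and under quantile normalization, and 5 and 2 at equal totals. CYP3A5, a drug-metabolizing enzyme, had log2 differences of -1.26 at 24 h and 1.55 at 48 h (limma adjusted p = 0.00491 and 0.000665). RXRA, a nuclear receptor that pairs with many xenobiotic receptors, had differences of -1.72 and -2.50 (limma adjusted p = 2.08e-05 and 1.84e-07), and PPARA, a fatty acid sensor, rose by 1.06 and 1.91 (limma adjusted p = 0.00351 and 1.65e-05).

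Of 10 genomic neighbours of CYP1A1, 7 were tested: 2 fell at 8 h, 1 rose and 4 fell at 24 h, and 1 rose and 3 fell at 48 h. At 8 h none fell without untreated replicate 1 or 2, and at equal totals 2 rose and 0 fell. At 24 h the count that fell was 1 at equal totals, under quantile normalization and without untreated replicate 2 or 24 h replicate 1, and 2 without untreated replicate 3. The neighbour that rose was CLK3, a dual-specificity kinase, by 0.65 at 24 h and 1.75 at 48 h (limma adjusted p = 6.34e-05 and 4.63e-09). EDC3, an mRNA decapping factor, had log2 differences of -0.39, -0.62 and -0.82 at 8, 24 and 48 h (limma adjusted p = 0.0274, 0.000784 and 4.13e-05). Of the neighbours of AHRR, 6 were tested, and PDCD6 was the only one called, with log2 differences of -0.20, -0.31 and -1.22 at 8, 24 and 48 h (limma adjusted p = 0.042, 0.00163 and 6.54e-09). At equal totals its 8 h and 24 h differences were -0.03 and -0.13 and were not called.

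Likeness to CYP1A1 was measured over the 12 libraries as the root mean square difference of log2 values centred on each gene's untreated mean. The closest genes were a gene listed only by its identifier, ENSG00000264451 (0.40), LINC02384 (0.54), CD48 (0.58), TJP3 (0.58) and TMEM178A (0.67). These are genes of low level in untreated cells, where ENSG00000264451, LINC02384 and TMEM178A averaged 4.03, 0.07 and 1.24 normalized counts. They reached 270, 31.7 and 71.0 at 48 h. At such untreated levels the log2 values depend on the 1 added to each value. The ranking was not repeated with another added value. CD48, a lymphocyte surface protein, averaged 3.57 normalized counts in untreated cells and 69.0, 85.0 and 171 at 8, 24 and 48 h, and TJP3, a tight junction protein, 10.1 in untreated cells and 93.7, 210 and 337. Among the members, AHR ranked 288 in likeness (2.02), TIPARP 953 (2.72), ARNT 3250 (3.45) and AHRR 3847 (3.55).

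Erythroid markers of the line were present in all libraries. The 13 listed markers together held 360801 to 657608 normalized counts in untreated cells, and in treated cells 75299 to 106550 after 8 h, 90195 to 100530 after 24 h and 140060 to 141570 after 48 h. By limma 11 fell at 8 h, 10 at 24 h and 10 at 48 h, and 1 rose at 48 h. The sum of 11 lymphocyte markers, 6 of them tested, was 220 to 363 in untreated cells, 742 to 1069 after 8 h, 470 to 746 after 24 h and 509 to 626 after 48 h. Of these, 4 rose at 8 h, 2 at 24 h and 3 at 48 h, and 1 fell at 48 h. CD3D, CD3E and CD3G averaged 175, 18.5 and 32.6 normalized counts in untreated cells and 617, 61.4 and 117 after 8 h. CD8A and MS4A1 were listed at 0. Hepatocyte markers, 3 of 10 tested, summed to 306 to 642 in untreated cells, 279 to 352 after 8 h, 321 to 628 after 24 h and 171 to 302 after 48 h, and TTR, SERPINA1, FGB and CYP3A4 were listed at 0. Most of this sum was a single gene, TF, at 600, 623 and 280 normalized counts in untreated cells, where ALB averaged 1.78. Stromal and epithelial markers, 7 of 12 tested, summed to 35115 to 44974 in untreated cells, 36008 to 42140 after 8 h, 26534 to 28407 after 24 h and 30320 to 38296 after 48 h, and LUM was listed at 0. Nearly all of it was KRT8, KRT18, KRT19 and EPCAM, which averaged 15779, 11476, 8078 and 3088 in untreated cells. The stromal marker COL1A1 averaged 72.4 there. The part of these markers in the changes above was not tested.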

How the data were processed

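Gene counts normalized with DESeq2 were deposited by the authors as a signal for each gene and library. The submitters' processing notes also name cutadapt, Salmon and GRCh38. In the sources used here, tool versions and the annotation release are not given. Values of this signal are not whole numbers, so methods for counts were not run. Symbols came from a gene name table for 50026 of 51112 identifiers and from GENCODE release 29 for 267. The totals correspond to about 24566520 to 40420319 reads per library.

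Tested were the 15424 genes that reached 10 in 3 or more libraries, on log2(value + 1). The model was limma 3.58.1 (R 4.3.3), fitted once to all 4 groups with a trended prior. Tests were two-sided, with Benjamini-Hochberg adjustment over all tested genes. Comparisons were each time against untreated cells, 24 h against 8 h and 48 h against 24 h. P-values measure the spread between the replicates, which the labels call biological. The members and the gene lists were chosen with earlier results of these data known. Named were the members, up to 4 genes of each list (a mean of at least 50, passing the test against untreated cells, largest changes) and the 5 genes most like CYP1A1. CYP1A2, NQO1, HSP90AA1, PTGES3, KYNU and AFMID were named after their values were seen. Promoter sequences are from RefSeq, GRCh38.p14.

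Alternatives were pseudocounts of 0.5 and 8, testing all genes, a mean of at least 50, equal totals, median centring, quantile normalization, a robust prior, fitting only the groups compared, blocking on the replicate number, a threshold of 0.01, and omission of each library in turn.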

Additional observations from a re-analysis of the deposited data

How the results depend on the processing

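No member value that was called changed sign under an alternative that was run. Values that were not called did: AHR for 48 h over 24 h (-0.17 at equal totals, -0.02 without 48 h replicate 2), ARNT at 8 h (-0.05 with median centring), AHRR at 48 h (-0.004 at equal totals) and AHRR for 24 h over 8 h (-0.11 without 24 h replicate 2). Of the CYP1A1 values and the counts of called genes, 282 kept within the spread or within 1.5 times and 7 moved. Of the fold changes of the other members, 405 kept within the spread and 15 moved. At a threshold of 0.01 the genes called for 8 h against untreated cells numbered 2366 in place of 4347, and those for 24 h against 8 h 1007 in place of 2798. For 24 h against 8 h the count ranged between 1397 and 3144 with a library left out, and was 1622 without 8 h replicate 1, 1397 without 8 h replicate 3 and 1415 without 24 h replicate 1. Quantile normalization gave 11 target genes called at 8 h in place of 7. Equal totals gave CYP1A1 a difference of 1.10 for 48 h over 24 h in place of 1.48. With a library left out, CYP1A1 ranged from 3.13 to 3.47 (8 h), 4.09 to 4.45 (24 h) and 5.56 to 6.01 (48 h). The split of higher against lower calls moved with the scaling. At 8 h it was 2001 to 2346, but 2887 to 1083 at equal totals and 1658 to 3230 with median centring. At 24 h it was 3530 to 3813, but 4761 to 2657 at equal totals and 2839 to 4772 with median centring, and for 48 h over 24 h 3874 to 4184, but 1829 to 6607 and 5174 to 3239. Equal totals put the median of all genes at 0.14, 0.20 and -0.24 at 8, 24 and 48 h. The cause was not tested. The groups share replicate numbers, but 2 of 18 same-numbered pairs had deviations correlated above 0.1, so the numbers were not taken as pairing, and 7 of 12 libraries correlated best with their own number. A replicate block gave more genes called, 4554, 7515 and 10286 at 8, 24 and 48 h, beside 4347, 7343 and 10207 without it. Depth limits what can be said of CYP1A2 and CYP1B1.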

Other observations

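TIPARP belongs to the PARP family of ADP-ribosyltransferases. A list of 19 other genes was tested in full. It holds further transferases of the family together with MACROD1, MACROD2, PARG and ADPRS, which encode enzymes that remove ADP-ribose. By limma 2 rose at 8 h, 5 rose and 2 fell at 24 h, and 8 rose and 5 fell at 48 h, with list medians of 0.02, 0.21 and 0.35 beside -0.01, 0.02 and -0.05 over all tested genes. The 8 h calls ended without untreated replicate 1 or 8 h replicate 2 or 3, and at a threshold of 0.01. At equal totals 8 rose and 0 fell at 24 h. PARP1, the DNA damage sensor that makes most cellular poly(ADP-ribose), had a log2 difference of -1.99 at 48 h (limma adjusted p = 1.48e-09), and its 24 h difference of -0.36 (adjusted p = 0.0028) was 0.03, not called, under quantile normalization. PARP16, a transferase of the endoplasmic reticulum, rose by 2.32 at 48 h (limma adjusted p = 9.55e-05), and PARP6 by 1.57 (adjusted p = 5.14e-08). PARP10 rose by 2.02 at 24 h (limma adjusted p = 0.00741), and its 48 h difference of 1.74 (adjusted p = 0.0117) was no longer called without untreated replicate 3 (1.38).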
